A study of Mus musculus with 16 samples.

Results

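The nuclear genes for subunits of the oxidative phosphorylation complexes were read in 16 bulk lung tumors from mice with small cell lung cancer. Members were taken by symbol alone, as every gene named Ndufa, Ndufb, Ndufs, Ndufv or Ndufc with a number, every Sdha to Sdhd, and every gene whose symbol began with Uqcr, with Cox4 to Cox8 and a letter, or with Atp5 and a letter from a to o. This gave 81 genes of the 24016 entries kept, with 36 named for complex I, 4 for complex II, 8 for complex III, 18 for complex IV and 15 for complex V. The first group held 8 tumors labelled sgKdm5a RPP and the second 8 labelled sgControl RPP, each from a mouse with its own number in the table's header. All the mice carried H11-LSL-Cas9, a Cas9 transgene that is silent until Cre removes its stop, on a mixed B6;129 background. At 2 to 4 months of age they had received 400000000 viral particles of adenovirus into the trachea, with Cre driven by the CMV promoter and guide RNAs against either Kdm5a or a control sequence. RPP is taken, from knowledge of this model and not from the labels, to stand for guides against Rb1, Trp53 and Rbl2, which both groups then share. Tumors were taken at the study endpoint and were bulk tissue, so fewer cells of a type and less RNA per cell cannot be told apart.

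Oxidative phosphorylation takes electrons from NADH at complex I and from succinate at complex II, passes them through complex III and cytochrome c to oxygen at complex IV, and uses the proton gradient so made to form ATP at complex V. Complexes I, III, IV and V mix subunits from the nuclear and the mitochondrial genome, whereas complex II is wholly nuclear. KDM5A removes methyl groups from lysine 4 of histone H3, and in cells without RB it is known to hold down genes of mitochondrial function. The comparison of the groups therefore asks how these genes stand where Kdm5a was targeted.

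The library of the sgControl-labelled tumor 1 stood apart from the other 15. Its median over tested genes was 2.38 FPKM (fragments per length of transcript and per size of library, the unit inferred for the deposited values), against 10.0 to 12.3 FPKM in the others, and Mir6236 took 88.9% of its summed FPKM, against 5.76% to 15.2% elsewhere. Results are therefore also given with each library scaled to a common median and this library left out. Kdm5a itself was listed at 8.16, 12.3 and 17.3 FPKM (lowest, median and highest) in sgKdm5a-labelled tumors, against 3.28, 7.66 and 8.06 FPKM in sgControl-labelled tumors. The level was higher under the label that targets the gene, by 0.84 on the log2(FPKM + 1) scale (p = 0.000155, two-sided exact permutation test, n = 8 tumors each, the smallest p it can give), so this RNA does not check the labels, and the groups are named below by label. All 8 neuroendocrine markers were read in every tumor, from a lowest value of 3.02 FPKM for Syp to 10825 FPKM for Calca. Summed FPKM of 5 alveolar type 2 markers had a median of 654 (range 20.9 to 2843) in sgKdm5a-labelled tumors and 70.0 (8.28 to 5416) in sgControl-labelled tumors. The same sums for 5 fibroblast markers were 232 (26.2 to 503) and 67.1 (14.4 to 349), and for 5 macrophage markers 541 (195 to 1316) and 191 (19.7 to 2095), again sgKdm5a-labelled first. Most of each macrophage sum was Lyz2, at 165 to 1271 and 12.8 to 2047 FPKM. Cd68 had 15.5 to 37.1 and 5.48 to 29.2 FPKM, and Csf1r 5.92 to 16.8 and 0.44 to 11.6 FPKM, in the same order. The part of these cells in the values below was not tested.

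The subunit genes were among the most highly read genes of these tumors. A gene was tested when it reached 1 FPKM in at least 8 of the 16 tumors, which 78 of the 81 members did. The median of their mean levels was 164 FPKM, against 11.6 FPKM for all 13123 tested genes, 77 of the 78 lay above that all-gene median, and 68 lay in the top 10% of genes. Complex V genes had the highest median level at 303 FPKM, followed by complex III at 249, complex IV at 227, complex I at 133 and complex II at 98.0 FPKM. Between genes, Atp5e, which encodes the epsilon subunit of the F1 head of ATP synthase, was the highest at a mean of 693 FPKM, and Cox7a1, the heart and skeletal muscle form of a complex IV subunit, the lowest at 8.19 FPKM. FPKM is already per length, yet the 16 tested members whose longest annotated transcript was under 600 bases had a median level of 282 FPKM and the other members 145 FPKM. Spearman's rho between length and level was -0.45 over the 78 genes, which is a description across genes and not across replicates.

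**Figure D1:**
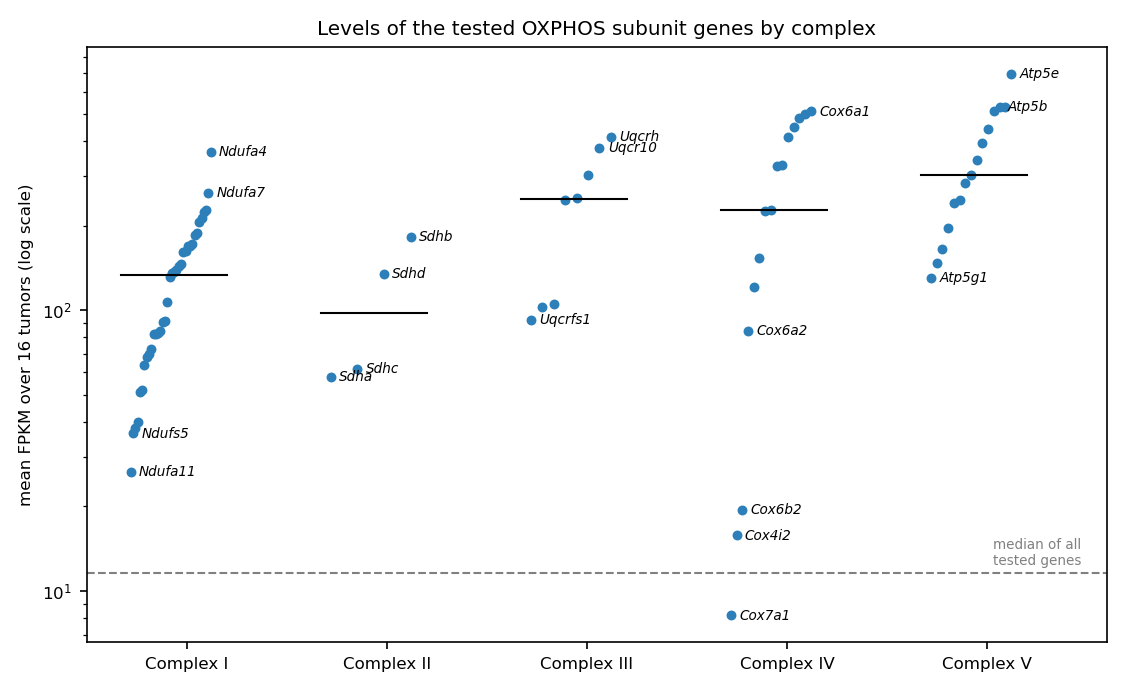
Mean FPKM over 16 tumors on a log scale (vertical axis) for each tested member, ordered by level within its complex (horizontal axis). Points are genes, black lines are the median of each complex, and the dashed line is the median of all tested genes at 11.6 FPKM; Cox7a1 at 8.19 FPKM is the tested member below it.

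Below the filter were 3 complex IV genes, and each is known for use in a particular tissue. Cox8c, a form first described in testis, was listed at 0 in all 16 tumors, and the 5 germ cell markers examined stayed under 1 FPKM throughout. Cox7b2, another form described in testis, ranged between 0 and 3.27 FPKM, with its highest value in the sgKdm5a-labelled tumor 3. Cox8b, the heart, skeletal muscle and brown fat form, ranged between 0 and 7.18 FPKM in 15 tumors and was 76.0 FPKM in the sgControl-labelled tumor 5.

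The members varied together from tumor to tumor. Levels were divided by each library's median and put on a log2 scale, and the tumors were then set against the median of all 16 gene by gene. By the median over 78 members, the sgKdm5a-labelled tumors ran between -0.40 in tumor 7 and 0.39 in tumor 2, with tumor 3 at 0.38 and tumor 5 at 0.23. The sgControl-labelled tumors ran between -0.18 in tumor 7 and 0.56 in tumor 2. The ranges overlapped, with the lowest tumor sgKdm5a-labelled and the highest sgControl-labelled. The sgKdm5a-labelled tumor 7 was the lowest of the 16 for 31 of the 78 genes, while the sgControl-labelled tumor 2 was the highest for 24 and the sgKdm5a-labelled tumor 2 for 20.

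Spread between tumors differed widely from gene to gene. The median coefficient of variation of the library-relative level over 16 tumors was 27.0% for the members, against 35.1% for all tested genes, and it was under 25% for 31 of the 78. The members were also read at higher levels than most tested genes, and genes of like level were not compared. Ndufs1, the largest iron-sulfur subunit of complex I, varied least at 13.5%, followed by Sdha at 17.2%. Ndufs5 (120%), Cox4i2 (92.6%), Cox6a2 (75.6%), Cox7a1 (74.0%) and Cox6b2 (73.1%) varied most.

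Over the 3003 pairs of members the median Pearson r across the 16 tumors was 0.46, and 91.6% of pairs were positive, whereas the median r between a member and any of the other 13045 tested genes was 0.03. Pairs within a complex (median r of 0.46) and pairs across complexes (0.45) were alike in this. Without the sgControl-labelled tumor 1 the median over pairs was 0.51 and that with other genes 0.04. These are descriptions without a test, since all points share the same libraries and the same scaling. Sdha, the flavoprotein subunit of complex II that also belongs to the tricarboxylic acid cycle, was the member least like the rest, with a median r of -0.21 against the other members. Cox4i2 (0.06) and Cox7a1 (0.08), forms restricted to certain tissues, came next.

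**Figure D2:**
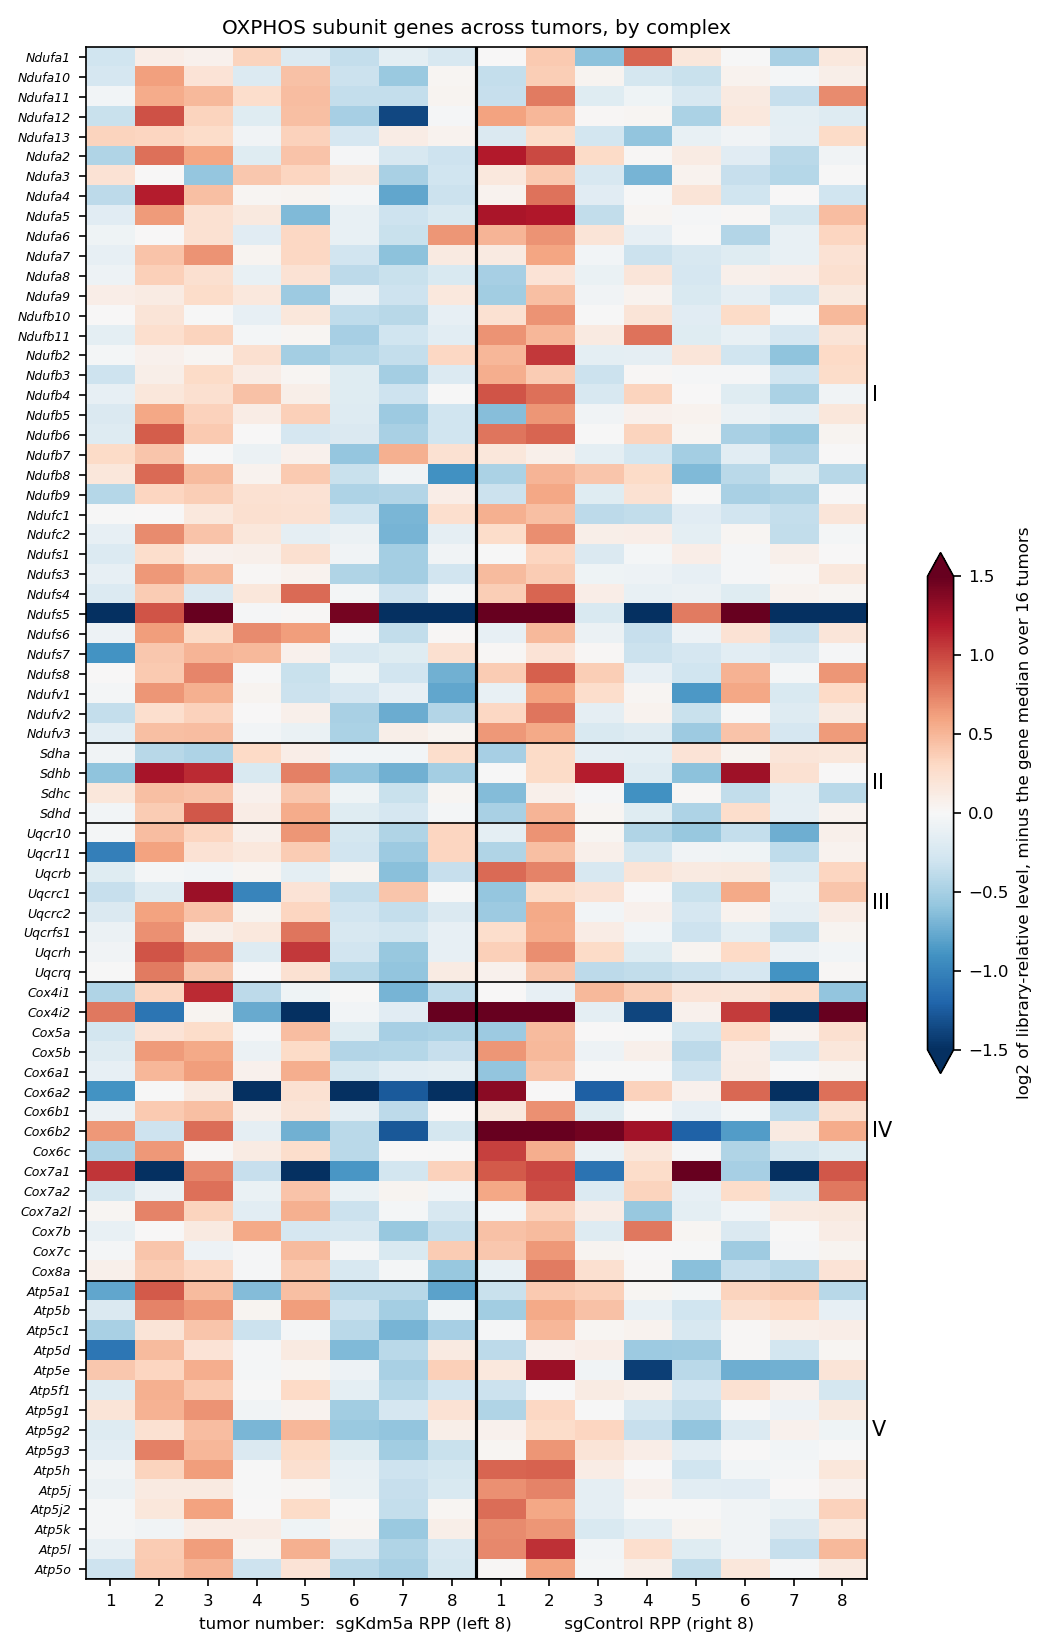
Log2 of each tested member's level relative to its library median, minus the median of that gene over 16 tumors (color), for genes in rows, by complex I to V, and 16 tumors (columns, sgKdm5a-labelled left and sgControl-labelled right). The sgControl-labelled tumor 2 is the highest tumor for 24 of the 78 tested genes and the sgKdm5a-labelled tumor 2 for 20, the sgKdm5a-labelled tumor 7 is the lowest for 31, and the rows of Ndufs5, Cox4i2, Cox6a2, Cox6b2 and Cox7a1 have the widest spread.

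Between the groups, no subunit gene passed the test. With limma on log2(FPKM + 1) and Benjamini-Hochberg adjustment over 13123 genes, 0 of 78 members had an adjusted p under 0.05, and the background was 1 gene, or 0.00762% of those tested. At an unadjusted p under 0.05 the members numbered 0 of 78, against 4.42% of all tested genes. With median scaling and without the sgControl-labelled tumor 1, adjusted calls were again 0 of 78 and the background 0%, and unadjusted ones 1 of 78, against 8.67% of all genes. Mouse numbers fall into a series of 190 to 238, with 4 sgKdm5a-labelled and 7 sgControl-labelled tumors, and a series of 839 to 893, with 4 and 1, which is too few to compare. Within the first series 0 of 78 members were called, against 0.0457% of all genes, and 1 of 78 at an unadjusted p under 0.05, against 5.13%. That fit used unscaled values and kept the sgControl-labelled tumor 1, and its precision was low, as given below. For 0 of 78 members did the FPKM of the groups not overlap, against 0.0838% of all genes.

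The median log2 difference of the members, sgKdm5a-labelled minus sgControl-labelled, was 0.20, and that of all tested genes was 0.21. Scaling each library to a common median brought the all-gene value to 0.002, so differences of genes are given below relative to the all-gene median. The SE and limma p beside a relative difference are those of the fit before this subtraction, which tests the unshifted difference against 0. For Sdhc, as an example, the unshifted difference was 0.69. Relative to the all-gene median the members' median was -0.01, with 35 members above and 43 below. The number above was 54 without sgControl-labelled tumor 2, where 24 members had their highest level, 26 within the mouse numbers 190 to 238, and 58 of 80 without a filter on low values. Without a filter the members' median stayed at 0.20 while the all-gene median became 0.099, so that shift lies in the reference. By complex the relative medians were -0.01 for complex I, 0.14 for II, 0.11 for III, -0.04 for IV and -0.04 for V. With scaling and without the sgControl-labelled tumor 1 they were -0.03, 0.02, 0.02, -0.17 and -0.06 in the same order, with -0.03 over all members. The precision differed between these fits. The 95% confidence interval of the difference lay within a 2-fold change in either direction for 45 of 78 members in the fit of the deposited values, and for 71 of 78 with scaling and without that library, where 50 of 78 lay within 1.5-fold. In the fit of mouse numbers 190 to 238 alone, the interval lay within a 2-fold change for 5 of 78 members. A p above the threshold does not show that the remaining genes were alike.

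**Figure D3:**
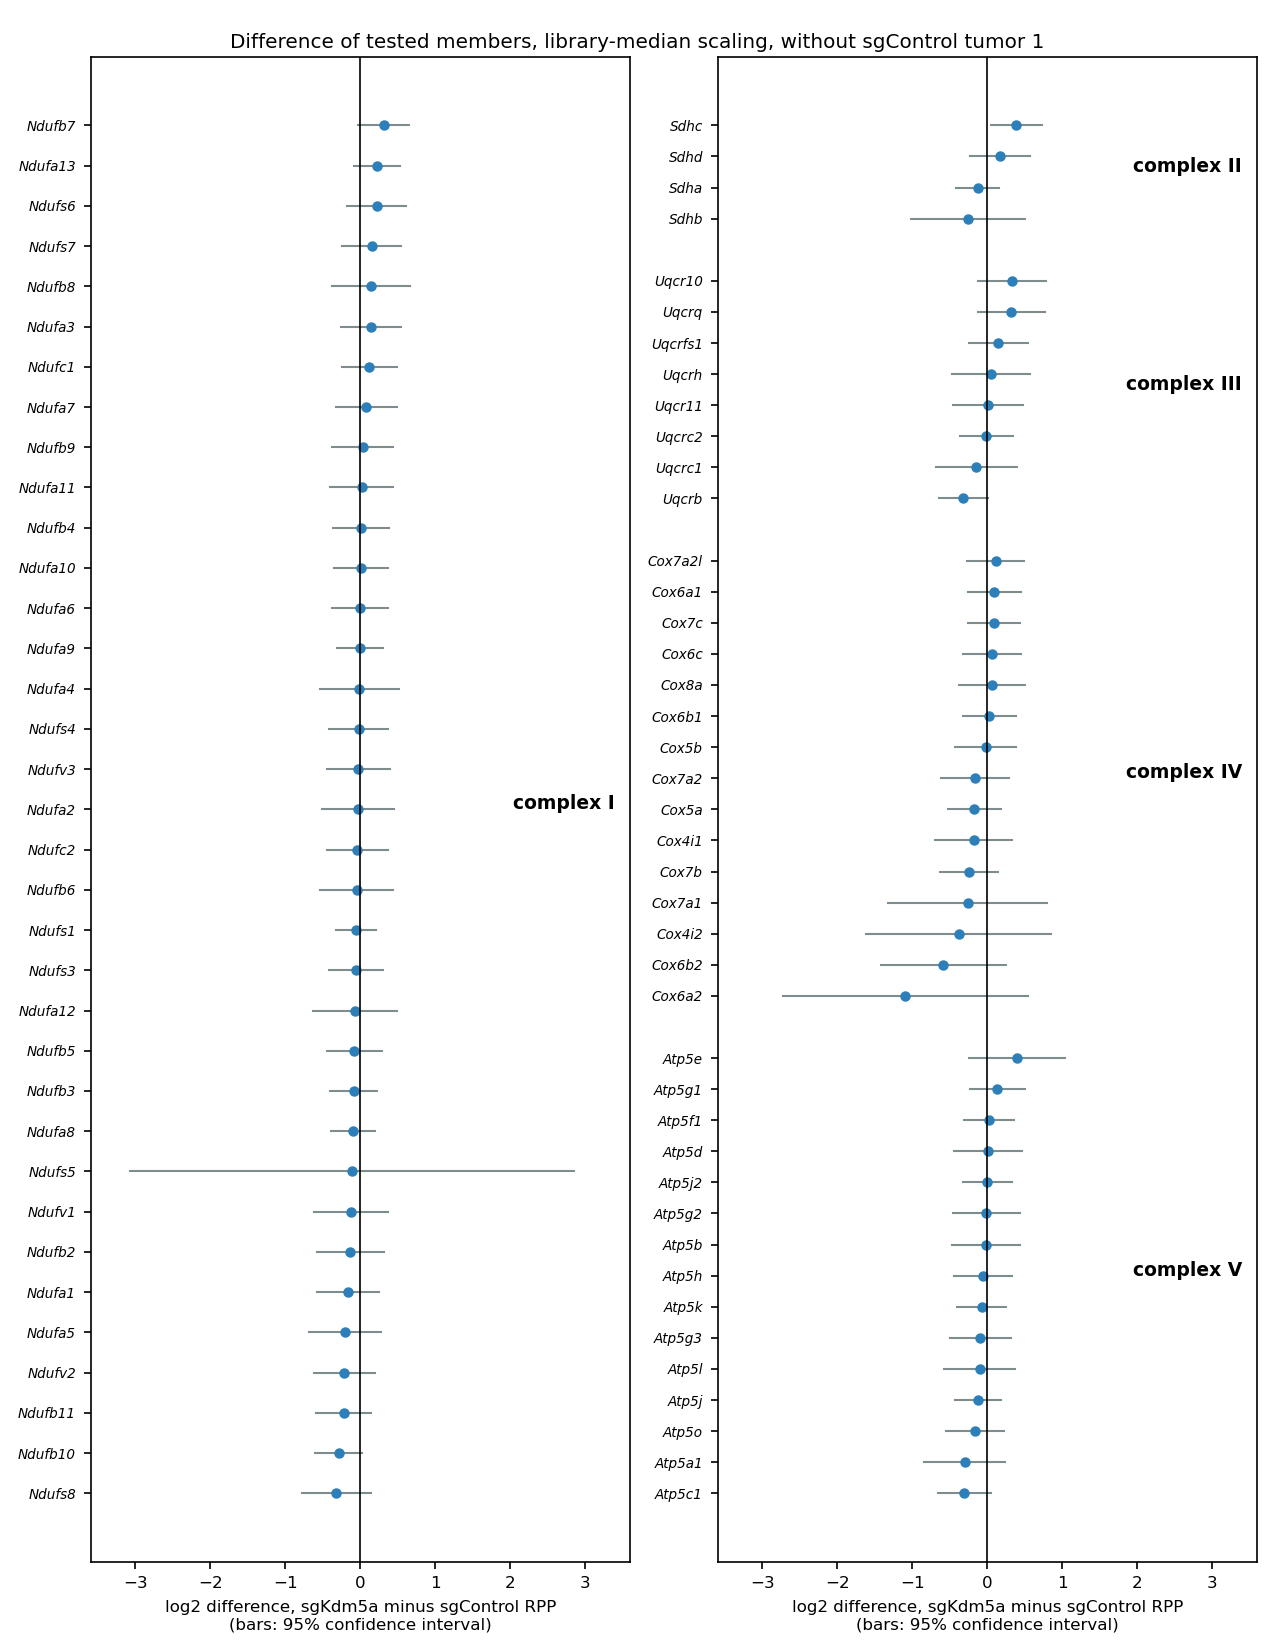
Log2 difference of the tested members, sgKdm5a-labelled minus sgControl-labelled, on library-median-scaled log2(FPKM + 1) without sgControl-labelled tumor 1 (horizontal axis; complex I left, complexes II to V right). Points are limma estimates and bars their 95% confidence intervals; the intervals of 71 of the 78 tested members lie within a 2-fold change, and those of Ndufs5, Cox6a2, Cox4i2, Cox7a1 and Cox6b2 are among the widest.

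Complex I, the NADH dehydrogenase, showed no called member among 36. The 7 core subunits that carry its flavin and iron-sulfur clusters or bind quinone had a median level of 72.5 FPKM, and the 29 others 144 FPKM. Ndufa4, highest of those named for this complex and now assigned to complex IV, was listed at 224, 364 and 701 FPKM (lowest, median and highest) in sgKdm5a-labelled tumors, against 76.7, 336 and 612 FPKM in sgControl-labelled tumors. Ndufa7, an accessory subunit, had 184, 283 and 400 FPKM in sgKdm5a-labelled tumors, against 59.6, 243 and 384 FPKM in sgControl-labelled tumors. The groups overlapped for both genes, and the lowest sgControl-labelled value was that of tumor 1 for each. Ndufa11, the lowest tested gene of the complex and an accessory subunit of its membrane arm, had 20.6, 28.01 and 33.4 FPKM in sgKdm5a-labelled tumors, against 4.005, 23.0 and 42.2 FPKM in sgControl-labelled tumors.

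The smallest p-value of complex I belonged to Ndufb7. The gene, which encodes an accessory subunit on the intermembrane space side, was listed at 169, 259 and 370 FPKM in sgKdm5a-labelled tumors, against 55.3, 204 and 248 FPKM in sgControl-labelled tumors. Its relative log2 difference was 0.32 with a SE of 0.30 (limma adjusted p = 0.852). With scaling and without sgControl-labelled tumor 1 the difference was 0.31 ± 0.16 (SE; limma adjusted p = 0.601), so the estimate was positive in either fit and passed in neither.

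Ndufs5, an accessory subunit of complex I, needs to be read together with a copy of itself. The processed pseudogene BC002163, on chromosome 16, matches the Ndufs5 coding sequence, on chromosome 4, at 99.4% of 319 aligned bases in GENCODE vM21 (GRCm38), with 2 mismatches. They are T81C and A105G, the Ndufs5 base first, counted from 1 at the start codon, and both stand in capitals in the stretch of coding bases 61 to 180 shown here because it holds every base that tells these transcripts apart within the alignment.
Ndufs5: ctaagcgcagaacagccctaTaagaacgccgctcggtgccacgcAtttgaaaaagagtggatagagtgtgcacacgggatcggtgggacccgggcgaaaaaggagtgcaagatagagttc
BC002163: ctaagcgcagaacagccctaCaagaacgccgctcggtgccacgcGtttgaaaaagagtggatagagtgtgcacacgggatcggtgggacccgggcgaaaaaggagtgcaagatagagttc

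Ndufs5 was under 1 FPKM in 3 sgKdm5a-labelled tumors (1, 7 and 8) and in 3 sgControl-labelled tumors (4, 7 and 8), and its highest levels were 84.3 FPKM under the sgKdm5a label and 155 FPKM under the sgControl label. In those 6 tumors BC002163 was listed at 59.3 to 127 FPKM under the sgKdm5a label and 97.3 to 247 FPKM under the sgControl label. In the sgControl-labelled tumor 2 the order was the reverse, with 155 FPKM for Ndufs5 and 0.02 FPKM for BC002163. How the authors' counting divided reads between these transcripts is not given in the sources used here, so the level of Ndufs5 alone is uncertain. The sum of both had 59.3, 124 and 254 FPKM (lowest, median and highest) in sgKdm5a-labelled tumors, against 35.4, 129 and 318 FPKM in sgControl-labelled tumors. The sum was present in every tumor and the groups overlapped. Its log2 difference was 0.06 ± 0.38 (SE, limma adjusted p = 0.973), against -0.28 ± 1.42 (adjusted p = 0.968) for Ndufs5 alone, neither taken relative to the all-gene median. The other same-strand copy found by this search, Gm10012 for Cox7c, was listed at no more than 0.25 FPKM in any tumor. Ndufa13, Ndufb5 and Uqcrc2 overlap a gene on the opposite strand for at least 200 bases, and whether counting used the strand is not stated.

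**Figure D4:**
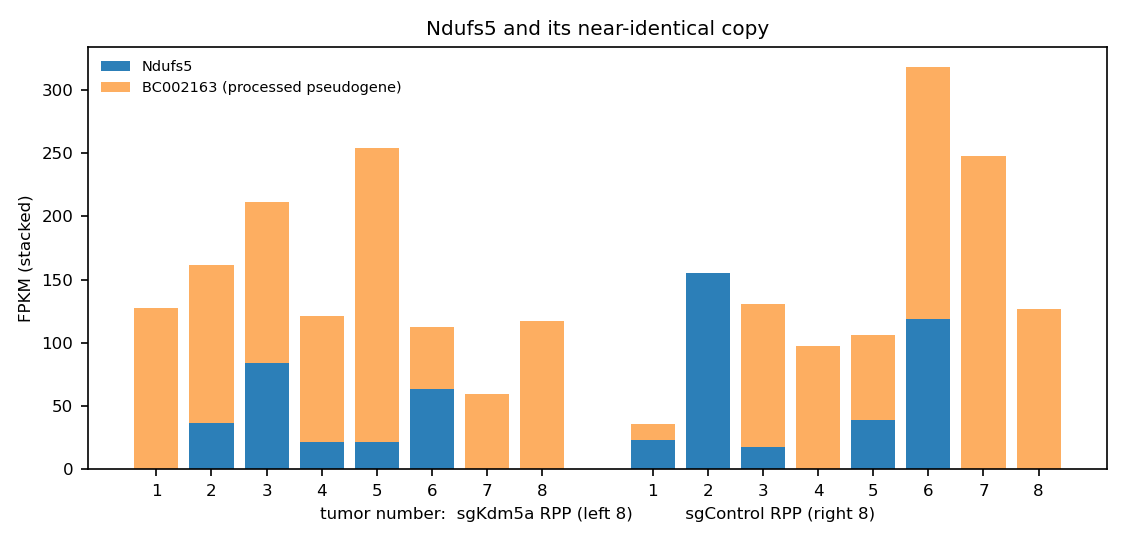
Stacked FPKM of Ndufs5 (blue) and its processed pseudogene BC002163 (orange) in each tumor, sgKdm5a-labelled left and sgControl-labelled right. Blue is near 0 in sgKdm5a-labelled tumors 1, 7 and 8 and sgControl-labelled tumors 4, 7 and 8, while the stack is at least 35.4 FPKM in every tumor.

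Complex II, succinate dehydrogenase, held the highest relative difference and the smallest p of the 78 members in the fit of the deposited values, in Sdhc, one of its membrane anchors. Sdhc was listed at 55.2, 73.1 and 84.1 FPKM (lowest, median and highest) in sgKdm5a-labelled tumors, against 8.55, 56.5 and 68.4 FPKM in sgControl-labelled tumors. Its relative log2 difference was 0.48 with a SE of 0.34 (limma adjusted p = 0.852). With scaling and without sgControl-labelled tumor 1 the difference was 0.39 ± 0.16 (SE, limma adjusted p = 0.522; unadjusted 0.029 by limma). Sdhd, the other anchor, had 116, 135 and 234 FPKM in sgKdm5a-labelled tumors, against 18.8, 122 and 178 FPKM in sgControl-labelled tumors, a relative difference of 0.28 ± 0.36. Both anchors thus had higher FPKM medians under the sgKdm5a label, within overlapping ranges. With scaling and without sgControl-labelled tumor 1 the Sdhd difference was 0.17 ± 0.19 (SE, limma adjusted p = 0.856). As multiples of the library median, the Sdhd medians were 11.44 under the sgKdm5a label and 11.38 under the sgControl label without that tumor.

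Of the catalytic subunits of complex II, Sdha had a relative difference near 0 and Sdhb one below 0, each smaller than its SE. Sdha was listed at 38.3, 61.2 and 73.0 FPKM in sgKdm5a-labelled tumors, against 8.62, 65.7 and 70.1 FPKM in sgControl-labelled tumors, a relative difference of -0.01 ± 0.36 (SE). Sdhb, the iron-sulfur subunit, had 98.6, 119 and 314 FPKM in sgKdm5a-labelled tumors, against 31.1, 169 and 381 FPKM in sgControl-labelled tumors, a relative difference of -0.16 ± 0.42. The sgKdm5a-labelled tumors 2 and 3 had the lowest Sdha values of their group (38.3 and 40.7 FPKM) and its highest Sdhb values (310 and 314 FPKM). Neither gene passed the test, with limma adjusted p of 0.904 for Sdha and 0.979 for Sdhb. Those p-values belong to differences of 0.20 and 0.05 before the all-gene median was taken off, which are above 0.

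Complex III, the cytochrome bc1 complex, had 6 of 8 genes above the all-gene median difference and none called. With scaling and without sgControl-labelled tumor 1, 5 of 8 lay above it. Uqcrh, the hinge protein that meets cytochrome c1, was the highest, with 266, 360 and 747 FPKM in sgKdm5a-labelled tumors, against 97.8, 383 and 580 FPKM in sgControl-labelled tumors. Uqcrfs1, the Rieske iron-sulfur protein, was the lowest, with 80.2, 90.8 and 153 FPKM in sgKdm5a-labelled tumors, against 22.4, 87.9 and 130 FPKM in sgControl-labelled tumors. Group medians differed little for both genes beside their spread. Uqcr10, a small accessory subunit, had 303, 436 and 593 FPKM in sgKdm5a-labelled tumors, against 72.0, 303 and 598 FPKM in sgControl-labelled tumors, a relative difference of 0.38 ± 0.34 (SE, limma adjusted p = 0.852). Uqcrq, another small subunit, had 188, 287 and 395 FPKM in sgKdm5a-labelled tumors, against 57.1, 214 and 345 FPKM in sgControl-labelled tumors, a relative difference of 0.34 ± 0.32 (adjusted p = 0.852 by limma). Uqcrb, chosen after its values were seen, ran the other way, with 214, 278 and 338 FPKM in sgKdm5a-labelled tumors, against 115, 353 and 500 FPKM in sgControl-labelled tumors. Its relative difference was -0.35, and -0.32 ± 0.16 (SE, limma adjusted p = 0.592) with scaling and without sgControl-labelled tumor 1.

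Complex IV, cytochrome c oxidase, had the lowest relative median of the complexes once scaled, and its tissue-restricted forms spread the most. Cox6a1, the common form of a subunit at the rim of the enzyme, was the highest at 441, 503 and 737 FPKM in sgKdm5a-labelled tumors, against 68.0, 509 and 646 FPKM in sgControl-labelled tumors. Cox6b1, the common form of the subunit that faces the intermembrane space, had 406, 519 and 651 FPKM in sgKdm5a-labelled tumors, against 114, 493 and 779 FPKM in sgControl-labelled tumors. Medians of both lay close together, and the relative differences were 0.23 ± 0.36 and 0.07 ± 0.31 (SE). Cox4i1, Cox7a2, Cox7b, Cox7c and Cox8a, the other common forms compared, had relative differences between -0.23 for Cox7b and 0.13 for Cox8a, with limma adjusted p between 0.852 and 0.992.

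Cox6a2, the form of Cox6a1 known from heart and skeletal muscle, was well above the filter in most of these lung tumors. It was listed at 1.15, 53.1 and 120 FPKM (lowest, median and highest) in sgKdm5a-labelled tumors, against 14.3, 108 and 199 FPKM in sgControl-labelled tumors. The sgKdm5a-labelled tumor 8 was the lowest of all, and the highest values, 199 and 193 FPKM, were in sgControl-labelled tumors 6 and 8. The relative difference was -1.25 ± 0.72 (SE, limma adjusted p = 0.852), was -0.64 without sgKdm5a-labelled tumor 8, and the scaled difference without sgControl-labelled tumor 1 was -1.09 ± 0.77 (adjusted p = 0.736 by limma). Of 5 skeletal muscle markers, Myh1 and Myh4 were under 1 FPKM in all tumors, and the 5 summed to between 1.20 and 2.26 FPKM in sgKdm5a-labelled tumors and between 0.96 and 9.25 FPKM in sgControl-labelled tumors. The highest sums, 9.25 and 8.87 FPKM, were in sgControl-labelled tumors 1 and 5, where Cox6a2 was listed at 55.5 and 114 FPKM. The 7 cardiac markers summed to 3.97 to 38.4 FPKM in sgKdm5a-labelled tumors and to 2.74 to 162 FPKM in sgControl-labelled tumors, with 162 FPKM in tumor 5 and 5.58 and 4.82 in sgControl-labelled tumors 6 and 8. The part of muscle RNA in these values was not tested.

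The share of each restricted form in the FPKM of its set removes differences between libraries in scale. Over 9 shares tested by two-sided exact permutation of the 8 and 8 tumors, 0 passed after Benjamini-Hochberg adjustment, and 2 had an unadjusted p under 0.05. Cox6a2 made up 9.06% ± 4.77 of Cox6a1 and Cox6a2 together in sgKdm5a-labelled tumors and 20.6% ± 13.0 in sgControl-labelled tumors (SD, n = 8 each; exact permutation p = 0.0255, adjusted p = 0.178). Leaving out sgControl-labelled tumor 7, whose share was 2.74%, gave a difference of -14.1 percentage points and an adjusted p of 0.0308, while leaving out sgControl-labelled tumor 1, whose share was 44.9%, gave -8.09 points and 0.338, both by exact permutation. The call therefore turned on which library was left out.

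Cox6b2, a form described in testis, made up 2.70% ± 1.17 of its set in sgKdm5a-labelled tumors and 5.30% ± 3.19 in sgControl-labelled tumors (SD, n = 8 each; exact permutation p = 0.0471, adjusted p = 0.178). It was listed at 6.80, 12.8 and 26.6 FPKM in sgKdm5a-labelled tumors, against 6.83, 20.6 and 43.0 FPKM in sgControl-labelled tumors, and the germ cell markers were under 1 FPKM in every tumor. Cox4i2, the oxygen-responsive form known from lung and from pericytes, averaged 3.69% ± 4.23 of its set in sgKdm5a-labelled tumors and 5.28% ± 5.22 in sgControl-labelled tumors (SD, n = 8 each; exact permutation p = 0.515, adjusted p = 0.773). That difference of -1.59 percentage points was -2.97 without sgKdm5a-labelled tumor 8 and -0.14 without sgControl-labelled tumor 8. Its highest values were 49.4 FPKM in sgKdm5a-labelled tumor 8 and 51.5 FPKM in sgControl-labelled tumor 8, where the 7 pericyte markers summed to 53.5 and 32.6 FPKM. The highest pericyte sums, 67.6 FPKM in sgKdm5a-labelled tumor 7 and 57.5 FPKM in sgControl-labelled tumor 5, stood beside Cox4i2 levels of 9.85 and 11.2 FPKM.

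Cox7a1 and Cox8b peaked in the same tumor. Cox7a1 was listed at 1.94, 5.92 and 15.8 FPKM in sgKdm5a-labelled tumors, against 0.80, 6.996 and 26.0 FPKM in sgControl-labelled tumors. The highest value of Cox7a1, like the 76.0 FPKM of Cox8b, belonged to sgControl-labelled tumor 5, which also held the highest sums of cardiac markers (162 FPKM), adipocyte markers (594 FPKM) and alveolar type 2 markers (5416 FPKM). The next highest adipocyte sum, 124 FPKM in sgKdm5a-labelled tumor 2, stood beside 3.29 FPKM of Cox8b. Ndufa4l2, a relative of Ndufa4 induced by hypoxia and outside the naming rule, was 1.55% ± 1.14 of their sum in sgKdm5a-labelled tumors and 2.41% ± 1.55 in sgControl-labelled tumors (SD, n = 8 each; exact permutation p = 0.227, adjusted p = 0.51).

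**Figure D5:**
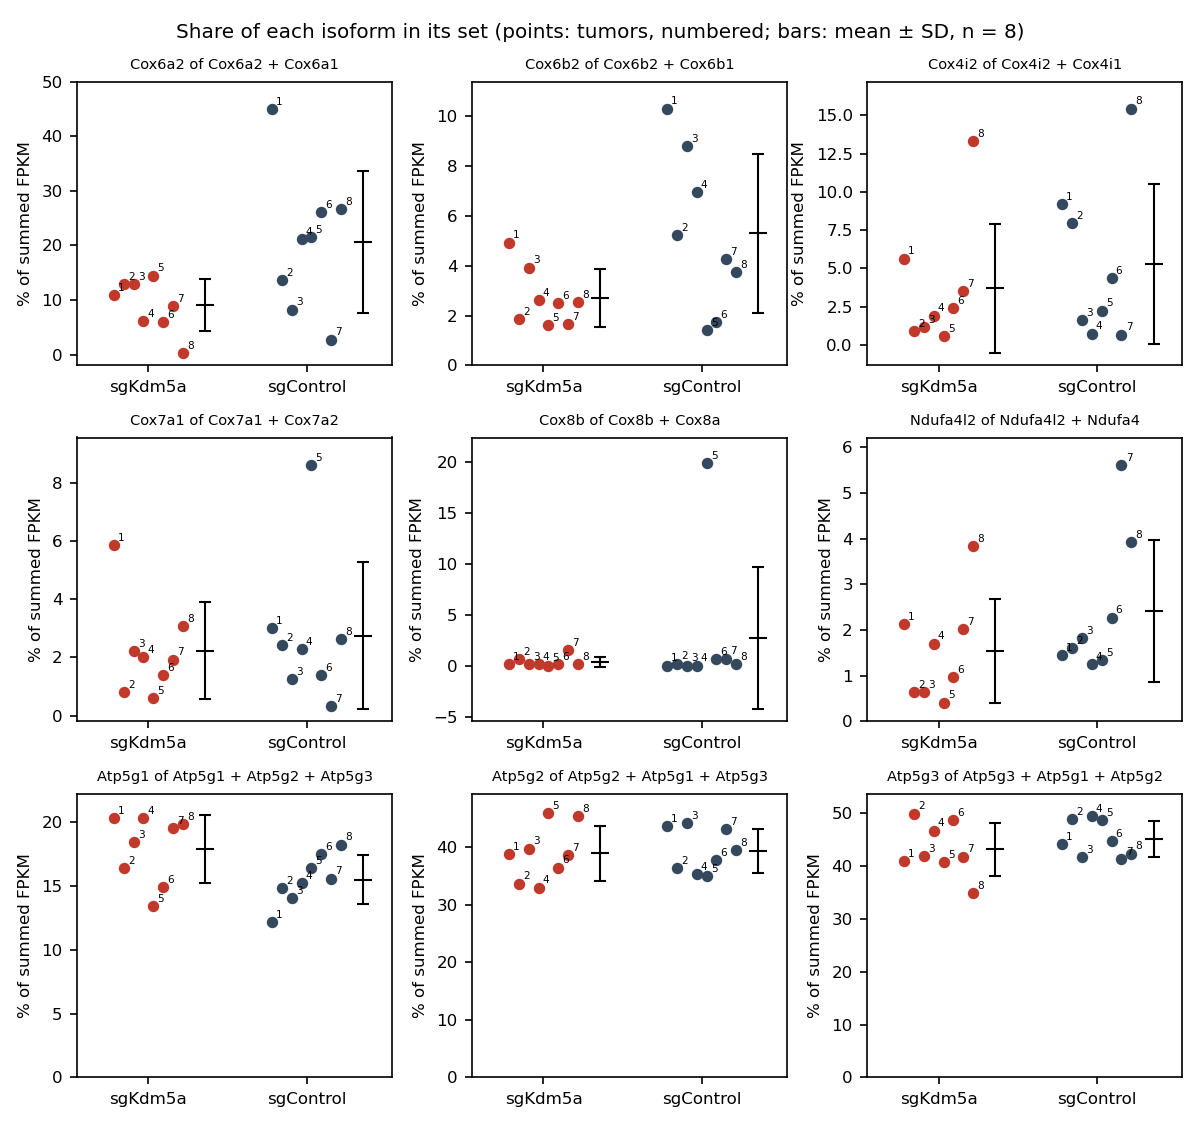
Share of each isoform in the summed FPKM of its set, in percent (vertical axis), for 9 isoforms, with sgKdm5a-labelled tumors (red) left of sgControl-labelled tumors (dark blue). Points are tumors with their numbers and bars are the mean ± SD over 8 tumors; for Cox6a2 the means are 9.06% and 20.6%, and for Cox8b the single high point is sgControl-labelled tumor 5 at 19.9%.

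The start regions of the subunit genes were searched for motifs of factors known at such genes. RefSeq windows of 300 bases on GRCm38.p6, from 250 bases before to 50 after the annotated start, matched 67 of the 81 members with 72 windows. The NRF1 core TGCGCA, which is its own reverse complement, was in 26.4% of the members' windows, against 7.76% of all 32851 windows. The ETS motif of GABPA, CCGGAAGT or its reverse complement, was in 6.94% against 3.89%, and the YY1 motif AAGATGGCG in 9.72% against 1.40%. The motif CCGCCC read by the ARID domain of KDM5A was in 38.9% against 35.7%, and TATAAA in 11.1% against 13.6%, each on both strands. The members' windows also had a higher median GC content, at 57.3%, than all windows, at 52.7%. These shares are descriptions of the letters present and were not tested. The windows of Cox6a1, Cox8a and Cox8b are shown with every motif match in capitals, since the first holds TGCGCA once and CCGCCC at 2 places, the next holds the ETS motif at 2 places, and the last holds TATAAA alone.
Cox6a1 (chr5:115348909-115349208, minus strand): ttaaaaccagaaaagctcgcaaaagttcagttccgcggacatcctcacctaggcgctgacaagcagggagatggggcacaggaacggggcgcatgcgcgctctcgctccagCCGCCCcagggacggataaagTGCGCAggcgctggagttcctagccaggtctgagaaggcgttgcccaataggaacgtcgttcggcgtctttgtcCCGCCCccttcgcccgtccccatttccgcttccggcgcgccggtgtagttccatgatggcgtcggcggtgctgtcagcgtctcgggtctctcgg
Cox8a (chr19:7217567-7217866, minus strand): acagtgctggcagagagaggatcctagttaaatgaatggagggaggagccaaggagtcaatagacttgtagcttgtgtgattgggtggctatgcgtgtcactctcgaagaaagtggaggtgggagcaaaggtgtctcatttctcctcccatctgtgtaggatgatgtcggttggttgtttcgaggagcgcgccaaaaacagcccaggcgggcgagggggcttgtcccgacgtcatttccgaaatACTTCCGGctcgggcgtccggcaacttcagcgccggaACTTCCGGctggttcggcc
Cox8b (chr7:140900397-140900696, minus strand): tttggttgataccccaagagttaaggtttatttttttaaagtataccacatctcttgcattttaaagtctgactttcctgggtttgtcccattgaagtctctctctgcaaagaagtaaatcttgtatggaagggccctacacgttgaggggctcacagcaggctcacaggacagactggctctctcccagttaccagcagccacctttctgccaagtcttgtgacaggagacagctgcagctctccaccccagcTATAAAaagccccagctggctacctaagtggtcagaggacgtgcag

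Cox8a was listed at 315, 489 and 582 FPKM (lowest, median and highest) in sgKdm5a-labelled tumors, against 86.7, 421 and 756 FPKM in sgControl-labelled tumors. Cox8b had a median of 0.72 FPKM in sgKdm5a-labelled tumors and 1.12 FPKM in sgControl-labelled tumors. The ETS motif was found in 5 of the 67 matched members, and a relation of motif to level was not tested.

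Complex V, the ATP synthase, had 0 of 15 genes called. Atp5e was listed at 527, 724 and 963 FPKM in sgKdm5a-labelled tumors, against 160, 488 and 1633 FPKM in sgControl-labelled tumors. Its relative difference was 0.40 ± 0.36 (SE, limma adjusted p = 0.852), and the highest single value lay in sgControl-labelled tumor 2. Without that tumor it was 0.62, and without sgControl-labelled tumor 4, the lowest but for tumor 1, it was 0.24. Atp5k, subunit e of the membrane part, had 398, 564 and 595 FPKM in sgKdm5a-labelled tumors, against 185, 528 and 841 FPKM in sgControl-labelled tumors, a relative difference of -0.10 ± 0.28. The membrane part's proton-carrying c ring has the same mature protein from Atp5g1, Atp5g2 and Atp5g3, which differ in their import sequences. Atp5g1, the lowest tested gene of the complex, had 96.3, 144 and 200 FPKM in sgKdm5a-labelled tumors, against 19.6, 125 and 157 FPKM in sgControl-labelled tumors. It gave 17.9% ± 2.66 of the c-subunit FPKM in sgKdm5a-labelled tumors and 15.5% ± 1.92 in sgControl-labelled tumors (SD, n = 8 each; exact permutation p = 0.0592, adjusted p = 0.178). Atp5g2 gave 39.0% ± 4.78 and Atp5g3 43.1% ± 4.96 in sgKdm5a-labelled tumors, against 39.4% ± 3.85 and 45.1% ± 3.39 in sgControl-labelled tumors, so the order of the c-subunit genes was the same by group mean under both labels.

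Other genes of mitochondrial energy metabolism likewise gave no call, where 1 of all 13123 tested genes (0.00762%) was called. At an unadjusted limma p under 0.05 stood 3 of 77 mitochondrial ribosomal protein genes and 1 of 35 assembly factors, against 4.42% of all tested genes. Each other tested list had 0. Among 35 tested assembly factors the median relative difference was 0.006 with 0 called, and the smallest p-values were those of Uqcc1, an assembly factor of complex III, and Ttc19, which tends the Rieske protein. Uqcc1 averaged 21.1 ± 6.99 FPKM in sgKdm5a-labelled tumors and 13.3 ± 6.40 FPKM in sgControl-labelled tumors (SD, n = 8 each; limma adjusted p = 0.852), and Ttc19 averaged 10.6 ± 2.47 and 7.25 ± 2.88 FPKM in the same order. Among 77 mitochondrial ribosomal protein genes the median was 0.07 with 0 called, and 47 lay above the all-gene median. Mrps18a had the smallest p there, with 60.8 ± 9.14 FPKM in sgKdm5a-labelled tumors and 37.0 ± 13.1 FPKM in sgControl-labelled tumors (SD, n = 8 each; limma adjusted p = 0.852), followed by Mrpl11 at 13.9 ± 5.61 and 8.33 ± 3.72 FPKM. Of the 11 tested regulators of mitochondrial biogenesis, 0 were called and the median was 0.06. The smallest p-values were those of Tfb2m and Tfam, which act in transcription of mitochondrial DNA. Tfam averaged 18.4 ± 2.30 FPKM in sgKdm5a-labelled tumors and 15.7 ± 5.30 FPKM in sgControl-labelled tumors, and Tfb2m 11.9 ± 1.55 and 10.1 ± 3.81 FPKM (SD, n = 8 each).

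Pyruvate dehydrogenase and the tricarboxylic acid cycle (16 genes) had a relative median of -0.003 with 0 called, and glycolysis (15 genes) one of -0.04 with 0 called. Idh3b, a subunit of isocitrate dehydrogenase, averaged 88.3 ± 18.3 FPKM in sgKdm5a-labelled tumors and 67.8 ± 23.4 FPKM in sgControl-labelled tumors (SD, n = 8 each). Aldoa, the aldolase of glycolysis, averaged 584 ± 229 FPKM in sgKdm5a-labelled tumors and 439 ± 201 FPKM in sgControl-labelled tumors, and Pgam1, phosphoglycerate mutase, 200.3 ± 43.6 and 175 ± 81.4 FPKM (SD, n = 8 each). The 7 subunits and partners outside the naming rule had a median of -0.12 with 0 called; the smallest p-values were those of Ndufa4l2 and Cyc1, cytochrome c1, which averaged 106 ± 25.1 FPKM in sgKdm5a-labelled tumors and 92.3 ± 34.3 FPKM in sgControl-labelled tumors (SD, n = 8 each). Of the 13 subunit genes of mitochondrial DNA, 0 were found under their mt- symbols among the entries kept, so they were not analysed here.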

How the data were processed

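RNA of 16 lung tumors was analysed, 8 labelled sgKdm5a RPP and 8 labelled sgControl RPP, from libraries made with 500 ng of RNA and a stranded total RNA kit, per the labels' protocols. The deposited table was read as FPKM, a unit inferred from its values, since the authors' sheet was named for counts but its values are not whole. Tools listed in the submitters' processing notes are Cufflinks 2.2.1 and STAR 2.5.1b, with mm9 as build; annotation and counting options were not given. Depth per library is unknown, so the spread between tumors is the measure of precision.

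Of 24043 entries, 27 with names turned into dates were left out, and 24016 were kept. Columns of other samples numbered 0. Genes reaching 1 FPKM in 8 or more tumors were tested (13123) with limma 3.58.1 (trend and robust, R 4.3.3) on log2(FPKM + 1), a pseudocount of 1, groups as the sole term and Benjamini-Hochberg adjustment over all tested genes at 0.05. On this scale, changes of low genes are understated. The test was tried on simulated data in which each gene was drawn independently. Such data hold no shift of a whole library, so that feature was not tried. Single values were tested by exact permutation over samples (Python 3.11.15).

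Alternatives were median scaling, no filter, a pseudocount of 0.1, the tumor number as a block, the mouse number series as a covariate, the series 190 to 238 alone, and each tumor left out. Named members were the 2 highest and the lowest by level and the 2 of smallest p in each complex, all Sdh genes, the isoform sets and the genes below the filter; per other list, the 2 of smallest p. Members and lists were chosen with earlier results of these data known. Copies were sought with blastn 2.17.0 at 95% identity over 200 bases, among GENCODE vM21 transcripts of genes in the table. Promoters came from RefSeq. Where the files' build and GRCm38.p6 differ, no coordinate was converted. Ndufs5 was described after its values were seen. Some genes that the rule names are not reported here or drawn in the figures.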

Additional observations from a re-analysis of the deposited data

Results flagged for a closer look

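Single tumors that lay far from the rest of their group were looked for in 94 sets of 8 tumors, over library-relative levels and isoform shares, and 16 were found. The nominal rate by chance is 1 in 20. The sets share tumors, and shares repeat genes of the levels, so the count is not read as an excess over that rate. Levels here are multiples of the library's median FPKM. In sgKdm5a-labelled tumors, Cox4i2 was highest in tumor 8 at 4.18 and as a share of its set at 13.3%, Cox4i1 in tumor 3 at 76.8, Ndufa4 in tumor 2 at 70.1, Cox7a1 as a share in tumor 1 at 5.87% and Cox8b as a share in tumor 7 at 1.49%, and Atp5k was lowest in tumor 7 at 32.2.

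In sgControl-labelled tumors, tumor 2 was far above the rest for the summed complex III genes at 247, and for Atp5e at 146, Atp5g3 at 46.3, Ndufa4 at 54.6 and Uqcr10 at 53.4. Tumor 5 was highest for the shares of Cox7a1 at 8.61% and Cox8b at 19.9%, tumor 7 for Ndufa4l2 at 1.86, and tumor 1 for Kdm5a at 1.38.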

How the results depend on the processing

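The count of called members was 0 under every alternative run, of 80 tested without a filter and of 78 otherwise. The count of called genes was 1 and became 0 with median scaling, without a filter, with a pseudocount of 0.1, with median scaling without sgControl-labelled tumor 1 and with that plus summed copies, 6 in mice 190 to 238 alone, and 0 to 2 with a tumor left out; the cause was not tested. The members' median relative to all genes ran between -0.09 (mice 190 to 238) and 0.10 (no filter). The SD of the members' median over single tumors was 0.27, which is not the error of a difference between groups, and this range was not tested. The Kdm5a difference stayed past the threshold in every alternative (0.72 to 0.92 with a tumor left out, 0.61 with median scaling).

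Tumor numbers did not pair the groups (correlations of -0.30 to 0.38; the own number was best for 1 of 8). With the tumor number as a replicate block, called members stayed at 0 and called genes at 1, and the Cox6a2 share had an adjusted p of 0.258 (exact sign flips).

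Among shares, leaving out a tumor gave -14.1 to -8.09 points for Cox6a2, -1.41 to 0.43 for Atp5g2, -1.02 to 0.33 for Cox7a1, -2.97 to -0.14 for Cox4i2, -1.19 to -0.41 for Ndufa4l2, -2.95 to -0.79 for Atp5g3, 1.93 to 3.04 for Atp5g1, -3.15 to -1.88 for Cox6b2 and -2.72 to 0.13 for Cox8b, which was 0.37 in mice 190 to 238. Among 31 named genes, 0 passed under any alternative and 20 kept their sign throughout. Without a filter the all-gene median moved from 0.21 to 0.099, which alone shifts the relative differences of that setting. Signs turned for Atp5g2 with median scaling (-0.035), a pseudocount of 0.1 (-0.028), mice 190 to 238 (-0.14) and scaling without sgControl-labelled tumor 1 (-0.019); for Ndufa4 with median scaling (-0.016), a pseudocount of 0.1 (-0.0095) and scaling without that tumor (-0.016); without a filter for Atp5g3 (0.083), Atp5k (0.0074) and Sdha (0.10); in mice 190 to 238 for Cox6b1 (-0.025), Cox8a (-0.085), Ndufa11 (-0.077), Ndufa7 (-0.049), Sdha (0.020) and Uqcrh (-0.12); and with the number series as covariate for Uqcrh (-0.015). With a tumor left out they ran between -0.056 and 0.11 for Atp5g2, -0.12 and 0.056 for Atp5g3, -0.11 and 0.16 for Ndufa4, -1.03 and 0.0087 for Ndufs5, -0.13 and 0.050 for Sdha, and -0.042 and 0.18 for Uqcrh.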
